A study of Triticum aestivum with 15 samples.

Results

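LOC542951 is the wheat gene for an abscisic acid (ABA) response element binding factor, and it was followed through the germination of seeds of the bread wheat cultivar Jimai 20. The members were all probe sets whose gene symbol in the probe annotation is LOC542951, which gave 1 of the 61179 probe sets tested, Ta.23671.1.S1_x_at, for 1 of the 771 genes the annotation names. The suffix x marks a probe set in which some probes can also match other transcripts, so the signal of near-identical copies cannot be told apart from that of the gene. RNA of whole seeds was hybridized to 15 Affymetrix Wheat Genome Arrays, with 3 biological replicates per stage. The 5 stages were dry seed (0 hours after imbibition, HAI) and seed taken 12, 24, 36 or 48 HAI. Per the labels, seeds lay under sterile water for the first 12 h and were then moved to dishes with less water, so the step after 12 HAI and that move cannot be told apart. The unit is the deposited MAS5 signal intensity on a linear scale.

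ABA is the hormone that sets up and keeps seed dormancy and opposes germination, while gibberellin promotes germination. ABA response element binding factors are transcription factors of the basic leucine zipper (bZIP) class. They bind a short promoter element with an ACGT core, and known targets of this class in cereal grains include the genes of Em proteins, other late embryogenesis abundant (LEA) proteins and dehydrins, which protect the dry embryo. In wheat, a seed-expressed factor of this class is known to interact with the ABA-induced protein kinase PKABA1. Mature dry seeds hold stored transcripts of all these protective proteins from seed maturation.

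The transcript of LOC542951 was high in the dry seed, higher at 12 HAI, and then fell steeply. The 3 arrays gave intensities of 7620, 8383 and 9275 at 0 HAI. They gave 12677, 11794 and 12035 at 12 HAI. At 24 HAI the arrays gave 2408, 2594 and 2773. All 3 arrays at 12 HAI thus lay above those of the dry seed, and all 3 at 24 HAI lay far below both. At 36 HAI the intensities were 1323, 1120 and 1178, and at 48 HAI they were 1415, 1616 and 1480. No 2 neighbouring stages overlapped, although the last 2 stages lay close together, with 1415 as the lowest array at 48 HAI and 1323 as the highest at 36 HAI.

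**Figure D1:**
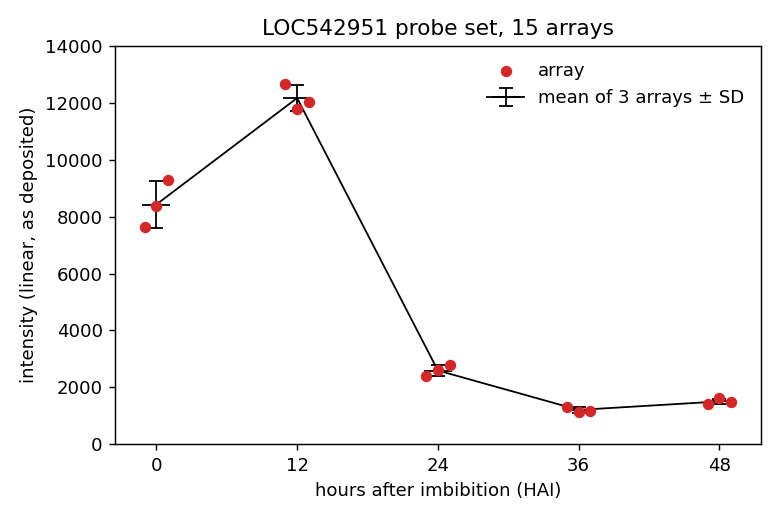
Intensity of the LOC542951 probe set (linear axis from 0) against hours after imbibition, with red points for the 15 arrays and black bars for the mean of 3 arrays with SD. The arrays at 12 HAI lie between 11794 and 12677, above all arrays at 0 HAI, and those from 24 HAI onward reach at most 2773.

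Over the 5 stages the mean intensity was 8426 ± 828, 12168 ± 456, 2592 ± 183, 1207 ± 105 and 1504 ± 103 (SD, n = 3) at 0, 12, 24, 36 and 48 HAI. The stages from 12 HAI onward thus held 144%, 30.8%, 14.3% and 17.8% of the dry seed mean. The highest and the lowest stage differed by 3.32 in log2(intensity + 16), a 9.98-fold range (limma moderated F-test over the stages, adjusted p = 7.3e-10), and 47.7% of all probe sets passed this test.

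Between successive stages, LOC542951 first rose and then fell at 2 steps. It was 0.53 higher in log2 (SE 0.12) at 12 HAI than at 0 HAI, a 1.45-fold rise (limma, adjusted p = 0.0075), where 10.1% of all probe sets were called higher. With only those 2 stages in the fit the rise did not pass (0.53, limma, adjusted p = 0.072). The fall was largest between 12 and 24 HAI, with a log2 change of -2.23 (SE 0.12, limma, adjusted p = 4.5e-08), which is a 4.68-fold lower level at 24 HAI. In that step 14.8% of all probe sets were called lower, and 694 of 61179 (1.13%) had a change further down than LOC542951. A second fall of 2.13-fold followed at 36 HAI relative to 24 HAI (log2 change -1.09, SE 0.12, limma, adjusted p = 0.00021), in a step where 2.99% of all probe sets were called lower. The change at 48 HAI relative to 36 HAI was 0.31 (SE 0.12, limma, adjusted p = 0.14) and did not pass the threshold of 0.05, while 5.34% of all probe sets were called higher.

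At 48 HAI the gene was 5.55-fold lower than in the dry seed (log2 change -2.47, SE 0.12, limma, adjusted p = 6.8e-09), and 23.8% of all probe sets were called lower in this comparison. By level, the stages ranked 12 HAI, 0 HAI, 24 HAI, 48 HAI and 36 HAI, and of the neighbours in this order only 48 and 36 HAI did not differ by the test. The other neighbours differed by a log2 change of -1.69 at 24 HAI relative to 0 HAI (limma, adjusted p = 2.8e-07, with 22.3% of all probe sets called lower) and of -0.78 at 48 HAI relative to 24 HAI (limma, adjusted p = 0.0010, with 7.22% called lower). These 2 contrasts were added after the values were seen.

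How much of the early rise and of the late fall was seen depended on the scaling of the arrays, but under all 5 scalings run 12 HAI stood above 0 HAI and 24 HAI below 12 HAI. The deposited values give every array nearly the same trimmed mean, and on this scale the median over all 61179 log2 changes was -0.23 at 12 HAI relative to 0 HAI and -0.30 at 48 HAI relative to 0 HAI. Relative to that median, LOC542951 changed by 0.76 and -2.17. With arrays scaled to the poly-A control RNAs of the manufacturer, whose signal was stronger in the dry seed arrays than in the others, LOC542951 changed by 2.13 in log2 at 12 HAI relative to 0 HAI and by -0.88 at 48 HAI relative to 0 HAI. Both changes passed the threshold (limma, adjusted p = 2.5e-08 and 5.7e-05). Under that scaling the level at 24 HAI was 110% of the dry seed level and did not differ from it (log2 change 0.14, limma, adjusted p = 0.40), so the loss of transcript below the dry seed level by 24 HAI holds for the other scalings only. It also turned the order of the last 2 stages, with a log2 change of -0.47 at 48 HAI relative to 36 HAI (limma, adjusted p = 0.011). Over all probe sets, the poly-A scaling gave 26595 rises and 400 falls at 12 HAI relative to 0 HAI, and the deposited values gave 6191 and 7807. The amount of control RNA added to each sample is not given in the sources used here.

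**Figure D2:**
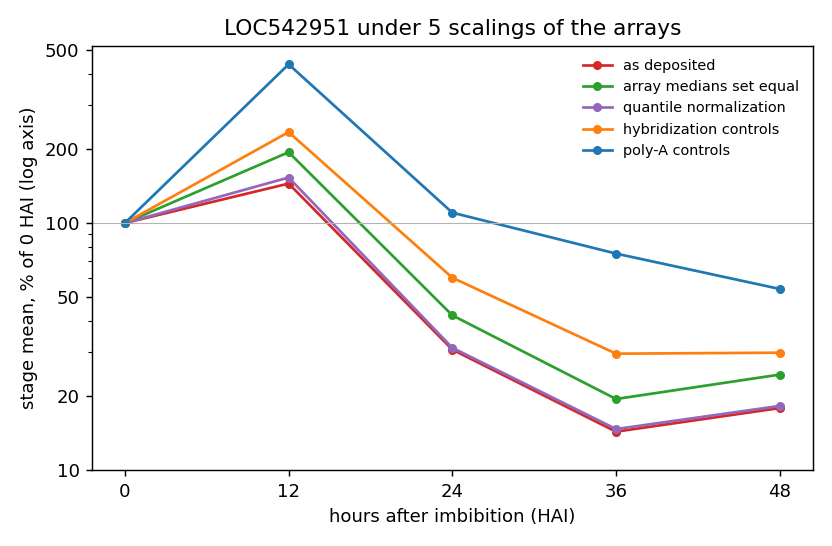
Stage mean of LOC542951 as a percent of its 0 HAI mean (log axis) against hours after imbibition, under the deposited scaling and 4 others, with 1 line for each. All lines peak at 12 HAI, from 144% with the deposited values to 439% with the poly-A control scaling, and lie between 17.8% and 54.1% at 48 HAI.

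The whole seed changes in tissue composition while the seedling grows, and a lower level from fewer cells of a type cannot be told apart from less RNA per cell. Transcripts that mark the embryo of the dry seed and the starchy endosperm were present. The summed intensity of the 12 Em and LEA probe sets lay between 434094 and 459554 at 0 HAI, 217627 and 265888 at 12 HAI, 59356 and 70908 at 24 HAI, 18982 and 24917 at 36 HAI, and 17910 and 23095 at 48 HAI. The sum of the 17 probe sets of endosperm storage proteins lay between 27189 and 30505 at 0 HAI, 18802 and 20813 at 12 HAI, 7144 and 7405 at 24 HAI, 4913 and 5478 at 36 HAI, and 4462 and 4852 at 48 HAI. The brightest of them, of the avenin-like LOC100125692, had means of 8110, 8533, 4743, 4162 and 4183 from 0 to 48 HAI. It thus made up most of the sum from 24 HAI onward, where the sum mainly follows this probe set. In the deposited values both sums were already lower at 12 HAI, where LOC542951 was higher. The alpha-amylase transcripts meant to mark the aleurone and scutellum were not matched to probe sets by the annotation used here, apart from LOC543318, which carries names of both an alpha- and a beta-amylase, so those tissues were not checked. The 3' to 5' signal ratio differed in course between the 5 control transcripts of wheat. That of G-6-PDH was 9.53 ± 1.31, 12.4 ± 3.4, 16.1 ± 0.6, 16.5 ± 1.7 and 28.6 ± 7.4 (SD, n = 3) at 0, 12, 24, 36 and 48 HAI. That of ubiquitin was 0.502, 0.591, 0.664, 0.615 and 0.762, and that of sucrose synthase 110, 57.1, 134, 95.9 and 80.1, as means of 3 arrays at the same stages. That of GAPDH was 0.286, 0.223, 0.211, 0.0850 and 1.07, and that of actin 0.909, 0.410, 0.296, 3.81 and 8.50. The highest mean was at 48 HAI for 4 of the 5, all but sucrose synthase, and at 24 HAI 2 of the 5 were below their dry seed mean. The part of these ratios, and of tissue composition, in the fall of LOC542951 was not tested.

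To set the timing of LOC542951 against the stored seed transcripts, 53 probe sets of 34 genes were taken from 5 lists, namely Em and LEA proteins, dehydrins, small heat shock proteins, endosperm storage proteins and other stored seed proteins. Descriptions of 26 of them come from lists of changed genes that the study chose on these samples, so their direction is not independent evidence. These include every dehydrin and small heat shock probe set and nearly all Em and LEA probe sets. For those lists the shares of all probe sets given below are therefore not a like comparison. A few of the 26 were listed by a synonym that their description does not bear out, as for the gliadin LOC543211, described as a casein kinase subunit. Of the 53, 30 had a mean of at least 1000 in the dry seed, and 4 had a mean under 32. With the deposited scaling, 28 fell, 1 rose and 24 did not pass at 12 HAI relative to 0 HAI, with a median log2 change of -0.83, where 12.8% of all probe sets fell. That split follows the scaling, since 5 were called lower and 15 higher with the poly-A controls, where the median of the list was 0.48 and that of all probe sets 0.81.

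The change of each stored probe set minus that of LOC542951 was therefore tested within arrays. This leaves aside scalings by 1 factor per array, apart from the 16 added before log2. It does not leave aside quantile normalization, 1 of the 5 scalings run, which gives all arrays the same distribution of values. All these tests share the noise of the 1 LOC542951 probe set. At 12 HAI relative to 0 HAI, 42 of the 53 changed further down than LOC542951 and 1 further up (limma, adjusted p under 0.05), while 41.2% of all probe sets changed further down than it and 4.57% further up. The stage of the highest mean, in contrast, follows the scaling. It was 0 HAI for 45 of the 53, 12 HAI for 6 and 36 HAI for 2 with the deposited values, and 0 HAI for 9, 12 HAI for 37, 24 HAI for 3 and 36 HAI for 4 with the poly-A scaling. With the deposited values, no stored probe set shared the 4 calls of LOC542951. These calls were higher at 12 than 0 HAI, lower at 24 than 12 HAI, lower at 36 than 24 HAI and lower at 48 than 0 HAI. Only 200 of all probe sets (0.327%) had them, so their absence among 53 does not set the stored lists apart.

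**Figure D3:**
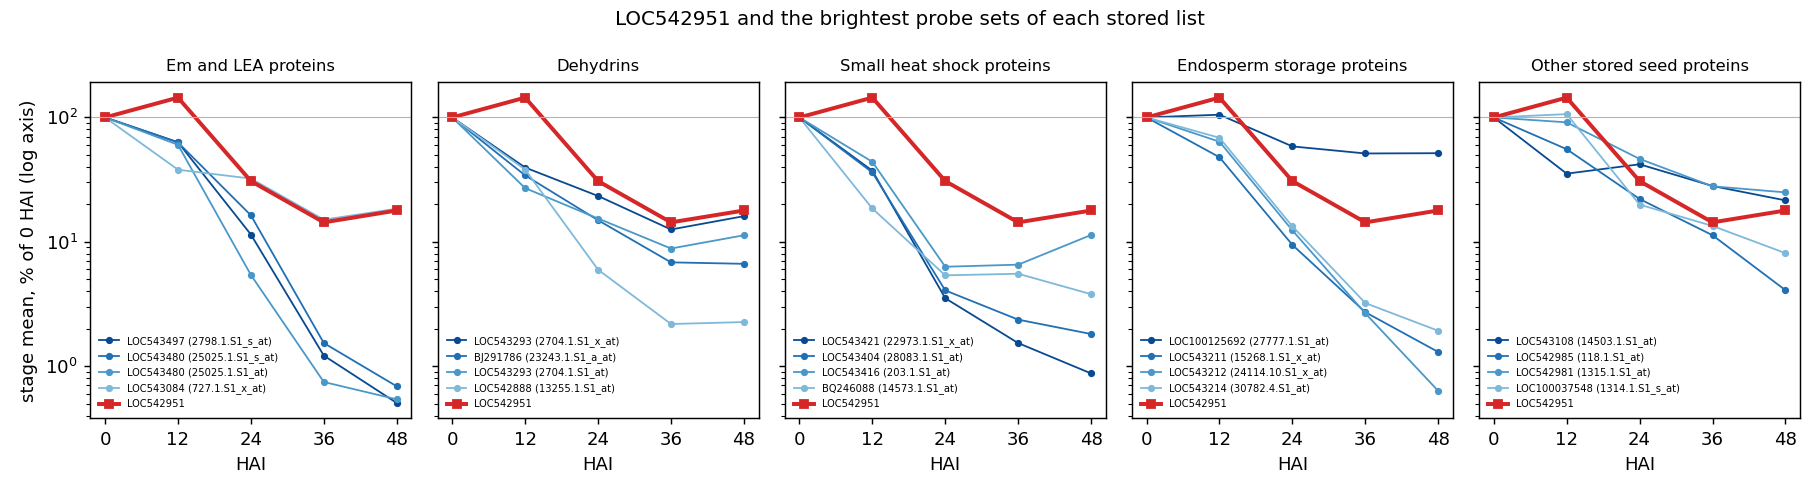
Stage mean as a percent of the 0 HAI mean (log axis, means under 32 set to 32) against hours after imbibition, in 1 panel for each stored list, with LOC542951 in red and the 4 probe sets of highest mean intensity in blue. LOC542951 stands at 144% at 12 HAI, above every blue line. At 48 HAI the lines of the Em genes, the dehydrins, the small heat shock proteins and the gliadins lie below it.

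Em proteins are small hydrophilic proteins of the mature embryo whose genes carry ABA response elements. The Em transcript LOC543497, by its brightest probe set, had intensities of 77441, 73754 and 71265 at 0 HAI, and 47363, 53087 and 40149 at 12 HAI. It then had 7876, 8844 and 8715 at 24 HAI, 844, 836 and 1021 at 36 HAI, and 368, 376 and 380 at 48 HAI. On the deposited scale it thus declined at each stage, also after 36 HAI. With the poly-A scaling its log2 change at 12 HAI relative to 0 HAI was 0.93 (limma, adjusted p = 3.7e-05), a rise, and its later changes stayed falls. Its log2 change at 12 HAI relative to 0 HAI minus that of LOC542951 was -1.20 with either scaling (limma on the difference, adjusted p = 0.00025 with the deposited values). With quantile normalization this difference was -0.64 (limma on the difference, adjusted p = 0.0058). The step at 24 HAI relative to 12 HAI did not separate this probe set from LOC542951, with a difference of -0.23 (limma, adjusted p = 0.21). At 36 HAI relative to 24 HAI its log2 change was -3.22, a difference of -2.12 from LOC542951 (limma, adjusted p = 7.7e-06). By 48 HAI it held 0.505% of its dry seed mean, against 17.8% for LOC542951.

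Among all 12 Em and LEA probe sets, 11 changed further down than LOC542951 at 12 HAI relative to 0 HAI. Of all probe sets, 41.2% did. At 36 HAI relative to 24 HAI, 8 changed further down and 1 further up, where 0.216% and 66.2% of all probe sets did. Their median log2 change in that step was -2.27, which exceeded their median of -1.80 for the step before, while LOC542951 had the larger fall in the earlier step. The 12 probe sets cover 9 genes, and not all had the larger fall in the later step. CD908263, described as a LEA protein, changed by -1.65 in the earlier step and -0.12 in the later. For LOC543497 the brightest probe set changed by -2.46 and then -3.22, and the dimmer by -3.29 and then -2.85. A second Em gene, LOC543480, held 16.3% and 5.41% of its dry seed mean at 24 HAI by its first and second brightest probe sets, and 0.688% and 0.540% at 48 HAI. Its brightest probe set changed by -1.94 in the earlier of these steps and -3.39 in the later. The second brightest changed by -3.47 and then -2.81, and the dimmest by -2.93 and then -2.69. LOC543084, described as a LEA protein, had only 38.0% of its dry seed mean at 12 HAI but 18.4% at 48 HAI, and its change at 48 HAI relative to 0 HAI was not separated from that of LOC542951 (difference 0.01, limma, adjusted p = 0.97). With the deposited scaling 11 of the 12 fell and 1 rose at 12 HAI relative to 0 HAI, with a median log2 change of -0.95, and with the poly-A scaling 2 fell and 7 rose, with a median of 0.65. The 1 member that rose on the deposited scale was LOC542946, also described as a LEA protein, with means of 232 ± 42, 1664 ± 94, 868 ± 74, 229 ± 37 and 171 ± 37 (SD, n = 3) from 0 to 48 HAI. It too peaked at 12 HAI, with a rise 2.24 in log2 above that of LOC542951 (limma on the difference, adjusted p = 1.0e-05).

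Dehydrins are hydrophilic proteins of dry and drought-stressed tissue, and several are named for their response to ABA. All 7 probe sets fell at 12 HAI relative to 0 HAI with the deposited scaling, with a median log2 change of -1.89, and 2 of 7 with the poly-A scaling. All 7 changed further down than LOC542951 in that step, where 41.2% of all probe sets did. The 2 brightest probe sets of the dehydrin LOC543293 (rab15) held 39.5% and 27.0% of their dry seed means at 12 HAI. At 24 HAI relative to 12 HAI, 5 of the 7 changed less far down than LOC542951. In that step 93.5% of all probe sets changed further up than it. The other 2, both of LOC542888, fell further than LOC542951, where 0.4% of all probe sets did. At 36 HAI relative to 24 HAI none of the 7 was separated from LOC542951, and their median log2 change was -1.11 beside -1.09 for the gene. With the deposited scaling the dehydrins thus had their largest median loss over the first 12 h, in which LOC542951 rose. With the poly-A scaling their medians in the 4 steps were -0.29, -0.57, -0.56 and -0.74. At 48 HAI relative to 0 HAI, 6 of the 7 changed further down than LOC542951, where 1.39% of all probe sets did.

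Small heat shock proteins are chaperones that accumulate in maturing seeds. All 5 probe sets changed further down than LOC542951 at 12 HAI relative to 0 HAI, with a median log2 change of -1.47 on the deposited scale, where all 5 fell. Of all probe sets, 41.2% changed further down than LOC542951 in that step. With the poly-A scaling 1 of the 5 fell and the median was 0.13. At 24 HAI relative to 12 HAI, 3 of the 5 fell further than LOC542951, beside 0.4% of all probe sets, and the median was -2.75. LOC543421, the brightest, held 37.3% of its dry seed mean at 12 HAI, 3.51% at 24 HAI and 0.873% at 48 HAI. LOC543404 held 36.1%, 4.06% and 1.81% at the same stages. LOC543416 (Hsp20) held 6.30% at 24 HAI and was then 0.77 higher in log2 at 48 HAI than at 36 HAI (limma, adjusted p = 0.0061), a rise not called with the poly-A or hybridization control scaling. The 5 together had fallen furthest of the lists at 24 HAI, with a median of 5.37% of the dry seed mean, where LOC542951 still held 30.8%.

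Transcripts of the endosperm storage proteins, which feed the seedling after breakdown, had a median log2 change of -1.58 at 24 HAI relative to 12 HAI, beside -2.23 for LOC542951. Of their 17 probe sets, 13 changed further down than LOC542951 at 12 HAI relative to 0 HAI and 4 were not separated from it. Of all probe sets, 41.2% changed further down than LOC542951 in that step. At 24 HAI relative to 12 HAI, 8 of the 17 changed less far down than LOC542951. The other 9 were not separated from it, several of them dim with a wide error. In this step 93.5% of all probe sets changed further up than LOC542951. By their brightest probe sets, the gliadins LOC543211, LOC543212 and LOC543214 had log2 changes of -2.33, -2.33 and -2.29 in this step, beside -2.23 for LOC542951 (limma on the difference, adjusted p = 0.57, 0.73 and 0.79). These probe sets then went on to 1.30%, 0.160% and 0.281% of their dry seed means at 48 HAI. The last 2 had stage means under an intensity of 32 there, and their falls from the dry seed are given as at least 154-fold and at least 50.8-fold. Dimmer probe sets of the same genes disagreed. The second of LOC543212, with a mean of 574 in the dry seed, changed by -0.54 at 24 HAI relative to 12 HAI, less far down than LOC542951 (limma on the difference, adjusted p = 0.00069), and held 4.93% at 48 HAI. The other 2 of LOC543214, with dry seed means of 158 and 68.1, held 14.02% and 73.4% there. The brightest of 4 probe sets of the avenin-like LOC100125692 had means of 8110 ± 477 and 8533 ± 201 (SD, n = 3) at 0 and 12 HAI and 51.6% of the dry seed mean at 48 HAI, while the other 3, with dry seed means of 17.2 to 183, held 8.27% to 19.3%. Several of the 17 were dim at all stages, and 4 did not pass at 48 HAI relative to 0 HAI.

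The other stored seed proteins included PER1 (LOC543108), a peroxiredoxin known from barley embryo and aleurone, and grain serpins and inhibitors of insect alpha-amylase. Of the 12 probe sets, 6 changed further down than LOC542951 at 12 HAI relative to 0 HAI, and 6 were not separated. In that step 41.2% of all probe sets changed further down than LOC542951. PER1 held 35.3%, 42.0%, 28.1% and 21.5% of its dry seed mean from 12 to 48 HAI by its brighter probe set. It therefore stood below LOC542951 at 12 HAI and above it at 24, 36 and 48 HAI, in percent of the dry seed, although its change at 48 HAI relative to 0 HAI was not separated from that of LOC542951 (limma on the difference, adjusted p = 0.12). Its dim probe set, with a mean of 173 in the dry seed, held 143% at 12 HAI and 96.2% at 48 HAI. The serpin LOC542985 fell further than LOC542951 over the whole period, to 3.71% at 48 HAI, and the monomeric amylase inhibitor LOC542981 fell less, to 24.96%.

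**Figure D4:**
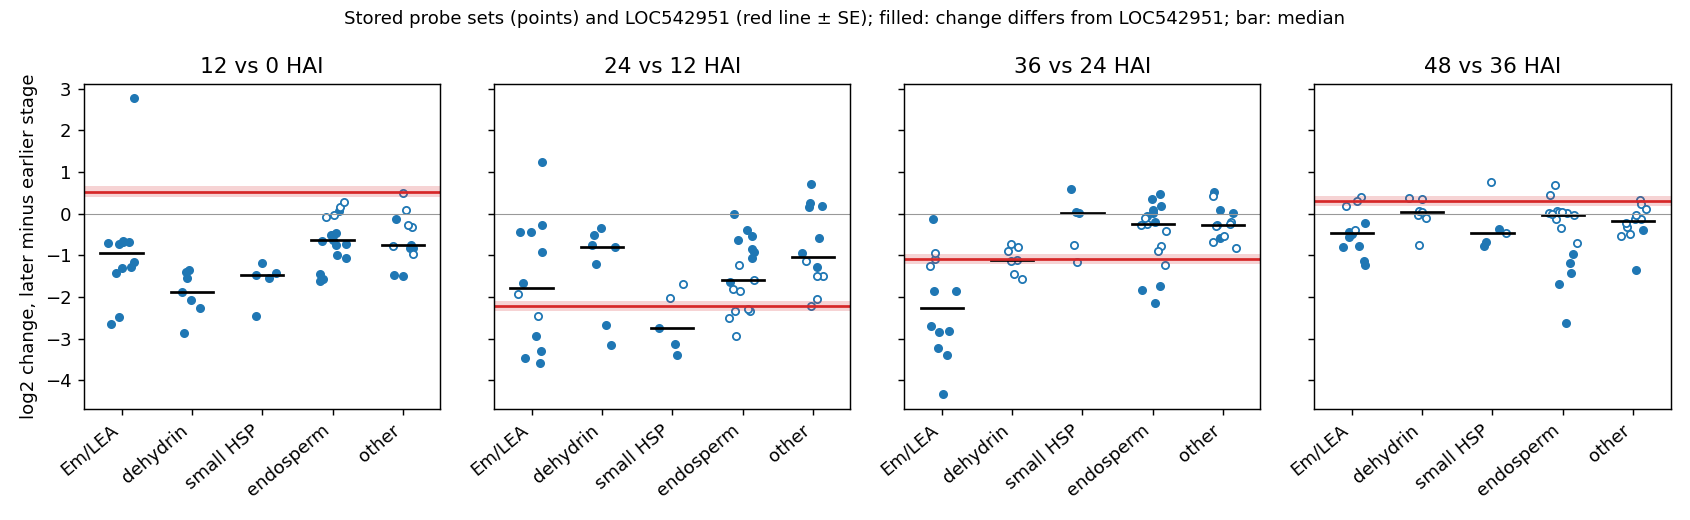
Log2 change (later minus earlier stage) of the 53 stored probe sets in the 4 successive steps, 1 point each, by list, with the median as a black bar and LOC542951 as a red line with its SE. Filled points changed differently from LOC542951 and open points did not pass that test. Most points lie below the red line in the first step and on both sides of it in the second.

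Over the whole interval, 28 of the 53 stored probe sets changed further down than LOC542951 at 48 HAI relative to 0 HAI, 11 changed further up and 14 were not separated from it, while 1.39% and 88.9% of all probe sets did. At 24 HAI relative to 12 HAI, 9 changed further down and 26 further up, where 0.4% and 93.5% of all probe sets did. With the deposited scaling the median log2 change of the 53 was -0.83, -1.49, -0.74 and -0.22 in the 4 steps, beside 0.53, -2.23, -1.09 and 0.31 for LOC542951.

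Beyond the lists, 8420 probe sets had a mean of at least 1000 in the dry seed, and 4535 of them were lower at 48 HAI than at 0 HAI. The median of these 4535 was 76.2%, 47.4%, 40.3% and 40.2% of the dry seed mean at 12, 24, 36 and 48 HAI. LOC542951 stood near the top of them at 12 HAI, where 6.06% held a higher percent, and near the bottom at 36 HAI, where 84.3% did. At 24 HAI, 73.6% held a higher percent. Of the 4535, 388 (8.56%) were called higher at 12 HAI than at 0 HAI on the deposited scale, as LOC542951 was, a share near the 10.1% of all probe sets.

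The other genes with an ABA or bZIP description were 4 probe sets, and all 4 rose at 12 HAI relative to 0 HAI. In that step 10.1% of all probe sets were called higher. The descriptions of all 4 come from lists of changed genes that the study chose on these samples, so their direction is not independent evidence. The transcript CA485875, described as an ABA-induced protein, had the profile nearest to that of LOC542951 among the 4. Its intensities were 7703, 6472 and 7262 at 0 HAI, 11879, 11140 and 10806 at 12 HAI, and 1033, 1279 and 1185 at 24 HAI. It then had 777, 728 and 965 at 36 HAI, and 802, 703 and 709 at 48 HAI. Its rise at 12 HAI was not separated from that of LOC542951 (difference 0.13 in log2, limma, adjusted p = 0.56), and its change at 24 HAI relative to 12 HAI was further down, with a difference of -1.03 (limma, adjusted p = 0.00014). With the deposited scaling, none of the remaining 3 was called lower in a step after 12 HAI. At 24 HAI relative to 12 HAI LOC780585 rose (log2 change 0.68, limma, adjusted p = 0.00049), and LOC606369 and CD373723 did not pass. With the poly-A scaling, 2 of the 4 were called higher in that step. At 48 HAI relative to 36 HAI, that scaling gave 3 of the 4 as lower. LOC606369 and CD373723, both described as bZIP factors, had 685% and 632% of their dry seed means at 48 HAI. LOC780585, a homeobox protein with a leucine zipper that is not a bZIP factor, had 446%. At 48 HAI relative to 0 HAI these 3 rose, as did 17.0% of all probe sets, and CA485875 fell.

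A further ABA-linked transcript, LOC542803, was named after its values were seen. It is described as an HVA22 protein, which in barley is induced by ABA. Its means were 4258 ± 391, 2126 ± 111, 835 ± 151, 321 ± 94 and 405 ± 56 (SD, n = 3) from 0 to 48 HAI. On the deposited scale its log2 change at 12 HAI relative to 0 HAI was -0.99 (SE 0.21, limma, adjusted p = 0.0050), and with the poly-A scaling it was 0.60 and did not pass (limma, adjusted p = 0.0502). Its change minus that of LOC542951 was -1.53 with either scaling (limma on the difference, adjusted p = 0.00042 with the deposited values). With quantile normalization this difference was -1.65 (limma on the difference, adjusted p = 0.00023).

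Gibberellin 20-oxidases make active gibberellin precursors and stand on the opposing side of the hormone balance. Their 4 probe sets, of LOC543325, LOC543326 and LOC543327, were dim in the dry seed, with means of 10.5 to 27.7. All 4 were higher at 48 HAI than at 0 HAI, as were 17.0% of all probe sets. At 24 HAI relative to 12 HAI, when LOC542951 fell most, 3 of the 4 rose, as did 13.3% of all probe sets. The brightest, of LOC543325, had means of 95.6 ± 16.6 at 12 HAI and 357 ± 18 at 24 HAI (SD, n = 3), and its rise at 24 HAI relative to 0 HAI was at least 11.2-fold.

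By correlation of log2(intensity + 16) over the 15 arrays, 787 of 34372 probe sets with a stage mean of at least 100 (2.29%) had r of at least 0.95 with LOC542951. The arrays fall into 5 stages with a shared course, so r mainly reflects the stage means and is given as a description. The most alike with a gene symbol were LOC100037603 (r = 0.99), LOC543182 (r = 0.98), LOC100125692 (r = 0.98), LOC780696 (r = 0.98) and TBP1 (r = 0.98). LOC780596, LOC606372, LOC780628, LOC780670 and LOC100125736 followed, each with r = 0.97. For LOC100125692 this was its brightest probe set, which is also on the endosperm storage list. Its other probe sets had r = 0.75, 0.80 and 0.24. LOC543182 is WZF1, a zinc finger protein, and TBP1 is the TATA-binding protein of basal transcription. LOC780670 is described as related to Myb4. Of these 10, WZF1 alone had the 4 calls of LOC542951, with means of 1467 ± 71, 2719 ± 188, 493 ± 62, 253 ± 39 and 369 ± 54 (SD, n = 3) from 0 to 48 HAI. TBP1 still held 63.2% of its dry seed mean at 48 HAI and LOC100125736 only 4.36%, so a high r did not mean a like size of change.

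**Figure D5:**
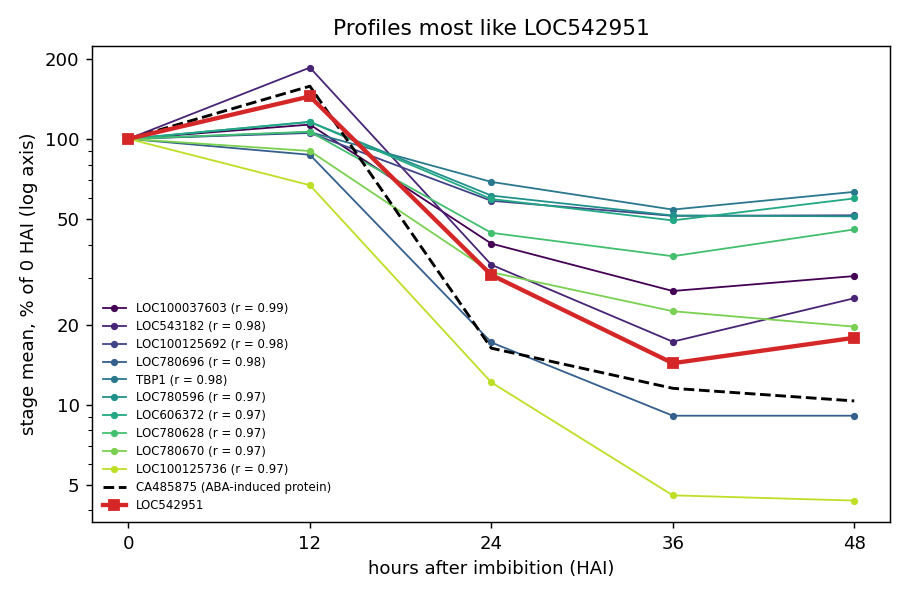
Stage mean as a percent of the 0 HAI mean (log axis) against hours after imbibition for LOC542951 (red), the 10 named probe sets with the highest correlation with it over 15 arrays, and CA485875 (dashed). At 12 HAI WZF1 (LOC543182) reaches 185% and CA485875 158%, beside 144% for LOC542951, while LOC100125736 is at 66.9%.

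Among the 200 probe sets with the 4 calls of LOC542951, 6 had a name, LOC542951 included. Besides WZF1 these were LOC542831, LOC100049042, LOC543070 and CA649902, all found after the values were seen. CA649902, described as a HOTHEAD protein precursor, had means of 4997, 11531, 1474, 944 and 921 from 0 to 48 HAI, so its rise at 12 HAI and its fall at 24 HAI were both steeper in ratio than those of LOC542951.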

How the data were processed

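Total RNA of Jimai 20 seeds was measured on 15 arrays, 3 at each of 5 stages. The authors summarized probe sets with MAS5 and deposited signal intensity on a linear scale, with nearly equal trimmed means (500.1 per array). Of 61290 probe sets, 111 controls were set aside. With 16 added, log2 values were fitted with 5 stage means in limma 3.58.1 (R 4.3.3). Benjamini-Hochberg adjustment over all probe sets used a threshold of 0.05. The same model was fitted to each probe set minus LOC542951 within arrays. Folds against a stage mean under 32 are bounds, with lower values set to 32. Gene symbols covered 1273 probe sets, and other names are rice-based descriptions or RefSeq synonyms (IWGSC CS RefSeq v2.1). The array is not tied to a genome build, so no coordinates are given.

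The members and lists were chosen with earlier results of these data known. List patterns were widened with synonyms after the annotation was seen. Up to 4 members per list were named, by highest mean intensity, as were the 10 most alike by correlation. Alternatives covered the value added, dim probe sets, scaling, variance trend, replicate block, stages fitted and each array left out. Steps were tested on simulated data. The number of arrays limits the precision. Figures were made with matplotlib 3.10.9.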

Additional observations from a re-analysis of the deposited data

How the results depend on the processing

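Of LOC542951, the range over the stages, the falls at 24, 36 and 48 HAI (relative to 12, 24 and 0 HAI) and the fall at 48 relative to 24 HAI kept their direction and stayed past the threshold under every alternative run. The rise at 12 HAI was lost when only those 2 stages were fitted (0.53, adjusted p = 0.072) and passed under the other 24 alternatives, at 0.46 to 2.13. The change at 48 relative to 36 HAI passed with an intensity trend in the variance (0.31, adjusted p = 0.020) and was reversed with poly-A control scaling (-0.47, adjusted p = 0.011), where the median of all probe sets was -0.56. The change at 24 relative to 0 HAI was reversed with that scaling (0.14). With single arrays left out, the steps in order gave 0.46 to 0.60, -2.28 to -2.17, -1.16 to -1.04 and 0.26 to 0.38. The cause of these shifts was not tested.

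The stored probe sets that differed from LOC542951 numbered 43, 35 and 39 at 12 relative to 0, 24 relative to 12 and 48 relative to 0 HAI, and 33 to 48, 29 to 45 and 32 to 45 under the alternatives. Same-numbered arrays did not deviate together (30 pairs, correlations -0.03 to 0.05), so the replicate numbers do not pair the samples. With the replicate block these counts were 42, 35 and 38 and the changes of LOC542951 passed as before (0.53, adjusted p = 0.014, at 12 HAI).

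Counts over all probe sets moved most with scaling. At 12 relative to 0 HAI, 6191 higher and 7807 lower became 9684 and 2824 with equal array medians, 11349 and 1428 with hybridization controls, 26595 and 400 with poly-A controls, and 3894 and 4236 with only those stages fitted. Lower calls of 9063 at 24 relative to 12 HAI became 4926 with hybridization controls. At 36 relative to 24 HAI, 1832 lower became 587 to 2955, and 1472 higher 913 to 13173. At 48 relative to 36 HAI, 3264 higher became 424 to 4372 and 3230 lower at most 20155. At 48 relative to 0 HAI, 14583 lower became 8434, 5241 and 2249 with equal medians, hybridization and poly-A controls, and 10403 higher became 24414 with the last. Of the 10 named genes most like LOC542951, 6 were shared when correlation over the 5 stage means was used.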
